A study of Mus musculus with 4 samples.

Results

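Cholesterol synthesis is represented here by 8 genes chosen by name as targets of the sterol regulator SREBP2: Hmgcs1, Idi1, Fdft1, Sqle, Lss, Cyp51, Dhcr7 and Insig1. All 8 were measured, among 19938 genes in all. The first 7 encode enzymes of the pathway and Insig1 encodes a regulator of it, so the set holds no receptor for cholesterol uptake. RNA was hybridised to 4 Affymetrix arrays, each loaded with sorted bone marrow cells pooled from 5 to 30 mice of the C57BL/6 background. On 2 arrays the cells were LSK/Flt3- cells of Vav-Cre/Hdac3Flox/- mice, called null here, which lack 1 copy of the histone deacetylase gene Hdac3 and lose the floxed copy in blood cells, where the Vav promoter drives Cre. The wild-type cells were LSK/Flt3- on 1 array and LSK/Flt3+ on 1 array. LSK cells lack lineage markers and carry Sca-1 and Kit, and hold the blood stem cells and earliest progenitors. Flt3 is a cytokine receptor gained as they leave the stem cell state. The labels give no ages, and nothing says that the null replicates came from separate mice, so a p-value here speaks of the spread among these arrays and that spread may be technical.

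Cells make cholesterol from acetyl-CoA through mevalonate, the isoprenoid diphosphates, squalene and lanosterol. The transcription factor SREBP2 is held in the endoplasmic reticulum with its escort SCAP by the INSIG proteins while sterols are plentiful. When sterols run low it is carried to the Golgi, cut and released, and it then switches on nearly every enzyme of the pathway as well as Insig1, which closes a feedback loop. Dividing progenitors of the marrow need the pathway for new membrane.

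The targeted gene Hdac3 read 5.71 and 5.04 (log2) on null replicates 1 and 2, against 6.18 and 6.33 on the LSK/Flt3- and LSK/Flt3+ wild-type arrays. No source used here says whether its probes fall in the deleted part, so the labels stand unchecked by it. Array medians over all probe sets ran from 5.30 to 5.60, with null replicate 1 the highest, and over all genes the median difference of null from wild-type cells was 0.09 for LSK/Flt3- and 0.05 for LSK/Flt3+. All differences below are on this log2 scale, on which 1 unit is 2-fold. Flt3 itself read 7.84 and 7.02 on the null arrays, 9.18 in LSK/Flt3- and 10.07 in LSK/Flt3+ cells. Of 5 listed LSK and stem cell markers 4 were measured, and Kit read from 10.11 to 10.77 on the 4 arrays. Slamf1 read 8.52 and 8.17 on the null arrays against 6.16 in LSK/Flt3- cells (limma, adjusted p = 0.174) and 5.08 in LSK/Flt3+ cells (limma, adjusted p = 0.00506). In the same order Cd34 read 9.77 and 9.90 against 10.34 and 10.58, and Procr 6.24 and 5.75 against 5.63 and 5.46. Of 6 granulocyte-monocyte markers, 5 were above both wild-type arrays on both null arrays as deposited, a pattern that 23.0% of all genes showed. The summed log2 level of the 6 was 52.54 and 55.59 on the null arrays against 45.24 in LSK/Flt3- and 49.26 in LSK/Flt3+ cells. The remaining marker, Csf1r, read 5.59 and 5.97 on the null arrays, 5.77 in LSK/Flt3- and 8.11 in LSK/Flt3+ cells. The summed level of 6 lymphoid markers, Flt3 among them, was 31.32 and 28.24 on the null arrays. It was 36.32 in LSK/Flt3- and 41.44 in LSK/Flt3+ cells. In null cells 5 of 6 were lower than in LSK/Flt3- cells, where 65.0% of all genes were higher. Against LSK/Flt3+ cells 6 of 6 were lower, where 56.9% of all genes were higher. There 3 of them (Dntt, Il7r and Flt3) passed the limma test, as did 0.316% of all genes. Flt3 is the receptor the cells were sorted on, so its difference from LSK/Flt3+ cells is not independent of the sort. The summed level of 5 erythroid markers was 28.63 on null replicate 1 and from 35.89 to 38.32 on the other arrays. Among them Car1 read 6.44 and 10.92 on null replicates 1 and 2, against 11.81 in LSK/Flt3- and 11.37 in LSK/Flt3+ cells. Car1 and Rhag were below both wild-type arrays on both null arrays, as 11.7% of all genes were, while Klf1, Epor and Gata1 overlapped. For 6 macrophage markers the summed level was 42.70 in wild-type LSK/Flt3+ cells and from 31.25 to 31.93 elsewhere. That sum hides opposite moves, with 3 of the 6 higher and 3 lower in null than in wild-type LSK/Flt3- cells. Cd68 read 8.02 and 8.38 on the null arrays against 6.95 in LSK/Flt3- cells, and C1qc 3.59 and 4.05 against 4.89. The part of these other cell programmes in the values below was not tested, and in sorted bulk samples fewer cells of a type and less RNA per cell cannot be told apart.

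Because the genes share a regulator, their proximal promoters were read. RefSeq windows of GRCm38.p6 were matched for 6 of the 8 genes, Hmgcs1, Idi1, Cyp51, Lss, Dhcr7 and Insig1, and not matched for Fdft1 and Sqle. The 250 bases before each annotated start were searched on both strands for TCACNCCAC, a form of the sterol regulatory element, for its shorter core TCACNCC, and for CCAAT, the box bound by NF-Y, which assists SREBPs at many sterol genes. The long element lay in the Hmgcs1 window, 137 bases before the start, and in none of the other members' windows, and it occurs in 1.05% of all 32851 windows. The short core was again found for Hmgcs1 alone of the 6, within the long element and also apart from it, 220 bases before the start. It occurs in 13.4% of windows. CCAAT was present in at least 1 window of all 6 genes and in 6 of their 8 windows (Dhcr7 has 3), against 33.8% of all windows and 35.4% of those of protein-coding genes. GGGCGG, the Sp1 box, was searched too. It was present in at least 1 window of all 6 genes and in 7 of their 8 windows. It occurs in 32.7% of all windows and in 42.6% of those of protein-coding genes. The windows of 3 genes are shown: Hmgcs1, with the matched element, Cyp51, an enzyme gene with no match to it, and Insig1, the gene below both wild-type arrays on both null arrays. They lie at chr13:119690101-119690350 (plus strand), chr5:4104698-4104947 (minus strand) and chr5:28071162-28071411 (plus strand), and capitals mark TCACNCC, TCACNCCAC and CCAAT on either strand.
Hmgcs1: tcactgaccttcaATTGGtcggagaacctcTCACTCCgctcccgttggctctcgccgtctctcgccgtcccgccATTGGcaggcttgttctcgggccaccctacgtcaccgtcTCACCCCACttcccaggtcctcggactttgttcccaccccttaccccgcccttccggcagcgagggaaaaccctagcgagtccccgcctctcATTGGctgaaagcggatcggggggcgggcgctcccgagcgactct
Cyp51: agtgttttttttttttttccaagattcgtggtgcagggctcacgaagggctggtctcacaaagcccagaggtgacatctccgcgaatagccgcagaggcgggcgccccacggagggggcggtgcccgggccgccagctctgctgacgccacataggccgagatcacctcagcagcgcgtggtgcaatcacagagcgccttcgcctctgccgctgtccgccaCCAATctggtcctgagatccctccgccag
Insig1: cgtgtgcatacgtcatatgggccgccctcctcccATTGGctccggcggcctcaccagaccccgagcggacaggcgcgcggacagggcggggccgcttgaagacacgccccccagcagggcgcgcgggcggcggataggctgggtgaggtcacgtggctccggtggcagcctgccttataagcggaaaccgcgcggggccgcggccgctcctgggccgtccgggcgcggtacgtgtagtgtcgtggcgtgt
A match of letters is a description of the window and not evidence of binding. No letters beyond these and GGGCGG, which is not marked, were searched. A window without a match to the sterol regulatory element, such as that of Cyp51, may therefore still hold another form of it.

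**Figure D1:**
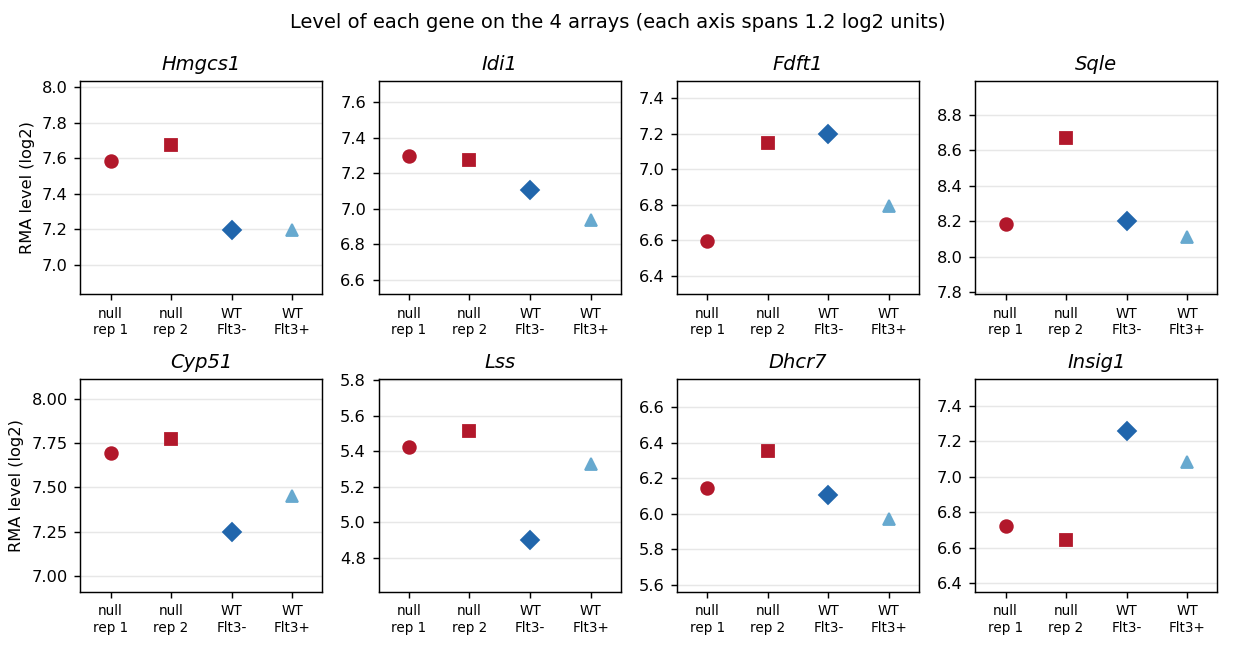
RMA log2 level of each of the 8 genes (one panel each) on the 2 null LSK/Flt3- arrays (red), the wild-type LSK/Flt3- array (dark blue) and the wild-type LSK/Flt3+ array (light blue). Each point is 1 array and each vertical axis spans 1.2 log2 units. Hmgcs1, Idi1, Cyp51, Lss and Dhcr7 lie higher on both null arrays than on both wild-type arrays, and Insig1 lies lower.

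As deposited, 5 of the 8 genes were higher on both null arrays than on either wild-type array, and Insig1 was lower. Over all genes 23.0% showed the first pattern and 11.7% the second. The differences were small, at most 1.49-fold, and 0 of the 8 genes passed the limma test in either null comparison. In that test 0.0201% of all genes passed against wild-type LSK/Flt3- cells and 0.316% against LSK/Flt3+ cells. At an unadjusted limma p under 0.05 the count was also 0 of 8 in both comparisons, where 2.40% and 3.44% of all genes passed, and it stayed 0 with robust estimation of the spread and with the wild-type arrays joined in 1 group. The adjusted limma p was 1 for every one of the 8 in both comparisons. Both comparisons use the same null arrays, so they are given side by side and are not independent.

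Hmgcs1, the first of the 8 genes in pathway order, encodes the synthase that makes HMG-CoA. It read 7.58 and 7.67 on null replicates 1 and 2, and 7.20 on each wild-type array. Both null arrays were therefore above both wild-type arrays, which differed from each other by less than 0.01. The difference was 0.43 ± 0.36 (SE; 95% interval -0.36 to 1.23) from LSK/Flt3- cells and 0.43 ± 0.36 (SE; -0.36 to 1.23) from LSK/Flt3+ cells, or 1.35-fold in each.

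Idi1, which interconverts the isoprenoid diphosphate building blocks, read 7.30 and 7.28 on the null arrays, 7.11 in wild-type LSK/Flt3- and 6.94 in LSK/Flt3+ cells. The null arrays lay together at the top, with LSK/Flt3+ cells lowest. The difference was 0.18 (95% interval -0.61 to 0.97) from LSK/Flt3- and 0.35 (-0.44 to 1.14) from LSK/Flt3+ cells. After median centring the former was 0.049. A further Idi1 probe set, with a lower mean, gave 0.09 and 0.41.

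Fdft1, squalene synthase, commits farnesyl diphosphate to sterols, and the direction of its difference was not settled. Its probe set with the higher mean read 6.60 and 7.15 on the first and the second null array, 7.20 in wild-type LSK/Flt3- and 6.79 in LSK/Flt3+ cells. The null replicates lay on either side of the LSK/Flt3+ array, and the difference was -0.33 (95% interval -1.18 to 0.52) from LSK/Flt3- and 0.08 (-0.77 to 0.93) from LSK/Flt3+ cells. Its other probe set read 6.80 and 7.03 on the null arrays against 6.45 and 6.37, without overlap, and gave 0.46 and 0.54. The annotation assigns both probe sets to Fdft1, and which of them reports its messenger RNA better was not tested.

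**Figure D2:**
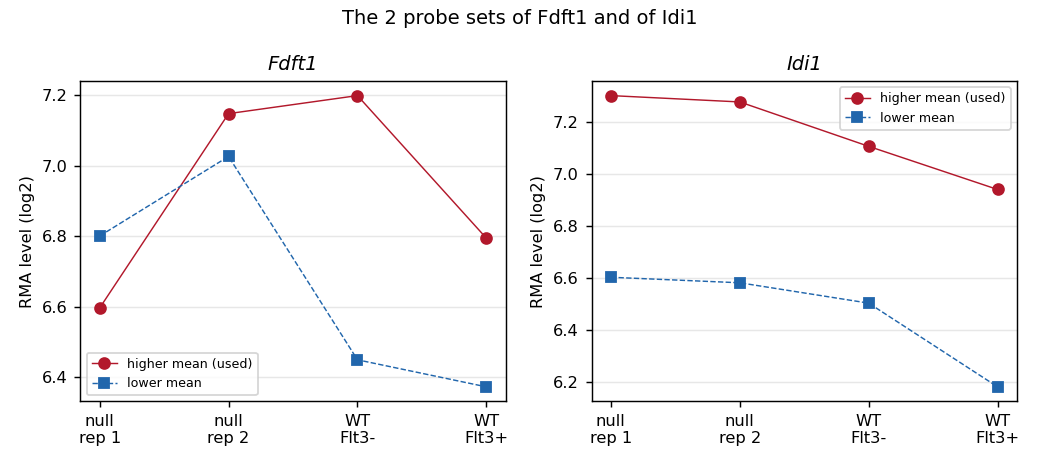
RMA log2 level of the 2 probe sets of Fdft1 (left) and of Idi1 (right) on the 4 arrays, 1 point per array, with lines joining the points of a probe set. The Fdft1 probe sets differ in order: the one used is highest in wild-type LSK/Flt3- cells (7.20), the other on null replicate 2 (7.03), while both Idi1 probe sets are highest on the null arrays.

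Sqle, squalene epoxidase, adds oxygen to squalene and is a control point of the pathway. It read 8.18 and 8.67 on the first and the second null array, 8.20 in wild-type LSK/Flt3- and 8.11 in LSK/Flt3+ cells. Only null replicate 2 stood apart, and replicate 1 fell between the wild-type arrays. The difference was 0.22 (95% interval -0.62 to 1.07) from LSK/Flt3- and 0.32 (-0.53 to 1.16) from LSK/Flt3+ cells, and from LSK/Flt3- cells it was -0.02 on null replicate 1 alone and 0.09 after median centring.

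Lss, lanosterol synthase, closes the sterol rings. It read 5.43 and 5.52 on the null arrays, 4.90 in wild-type LSK/Flt3- and 5.33 in LSK/Flt3+ cells. The LSK/Flt3- array stood low and the LSK/Flt3+ array lay just under the null ones, so the difference was 0.57 (95% interval -0.13 to 1.27) from LSK/Flt3- but 0.14 (-0.56 to 0.84) from LSK/Flt3+ cells. The latter was 0.055 after median centring, 0.048 after quantile normalization and 0.055 after cyclic loess.

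Cyp51, which removes a methyl group from lanosterol, read 7.70 and 7.78 on the null arrays, 7.25 in wild-type LSK/Flt3- and 7.45 in LSK/Flt3+ cells. The groups did not overlap. The difference was 0.49 (95% interval -0.31 to 1.28) from LSK/Flt3- and 0.29 (-0.51 to 1.08) from LSK/Flt3+ cells.

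Dhcr7, the reductase that yields cholesterol from its last precursor, read 6.15 and 6.35 on the first and the second null array, 6.10 in wild-type LSK/Flt3- and 5.97 in LSK/Flt3+ cells. Null replicate 1 exceeded the LSK/Flt3- array by 0.04, less than the gap of 0.21 between the null replicates. The difference was 0.15 (95% interval -0.61 to 0.91) from LSK/Flt3- and 0.28 (-0.48 to 1.04) from LSK/Flt3+ cells. The former was 0.012 after median centring, 0.065 after quantile normalization and 0.052 after cyclic loess.

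Insig1, the feedback inhibitor that retains SCAP and the SREBPs in the endoplasmic reticulum, was lower on both null arrays. It read 6.72 and 6.64 on the null arrays, 7.26 in wild-type LSK/Flt3- and 7.08 in LSK/Flt3+ cells. Both null arrays were below both wild-type arrays, by at least 0.36, while the null replicates were 0.08 apart. The difference was -0.57 ± 0.35 (SE; 95% interval -1.36 to 0.21) from LSK/Flt3- and -0.40 ± 0.35 (SE; -1.18 to 0.39) from LSK/Flt3+ cells. With the wild-type arrays joined in 1 group it was -0.49 (95% interval -0.97 to 0.0012; limma, adjusted p = 0.879), the lowest of the 8 genes.

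**Figure D3:**
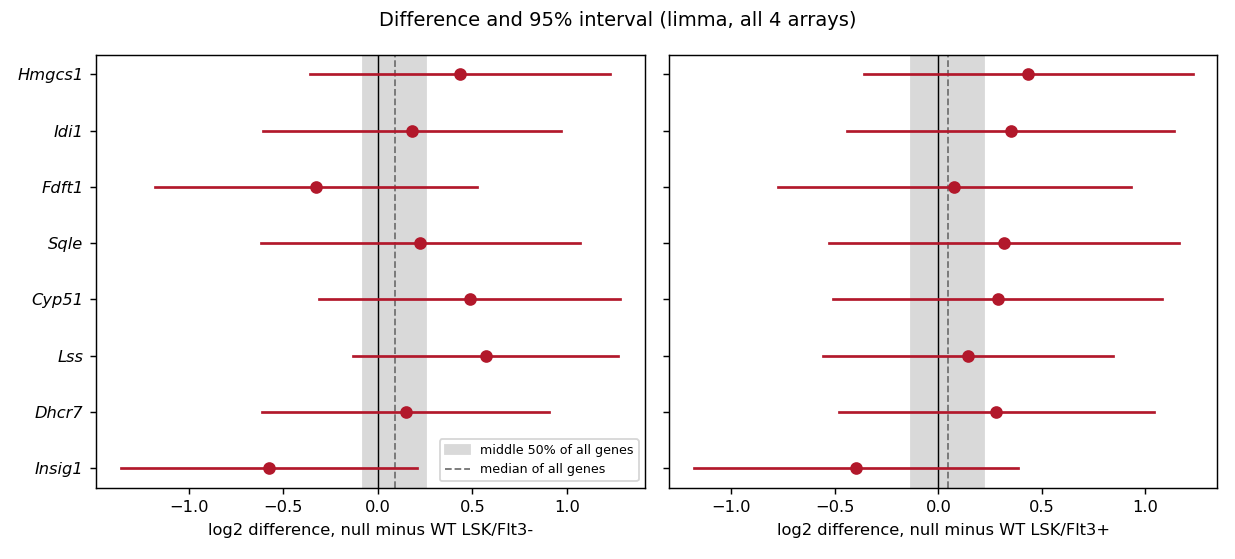
Log2 difference of the null mean from wild-type LSK/Flt3- (left) and LSK/Flt3+ cells (right) for the 8 genes, with the 95% interval of the limma fit as a line. Grey bands span the middle 50% of all genes and dashed lines their median. Every interval includes 0, and Insig1 lies farthest to the left in both panels (-0.57 and -0.40).

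Set against all genes, the median difference of the 8 genes was 0.20 from wild-type LSK/Flt3- cells, with 6 higher and 2 lower, where the median of all genes was 0.09 and 65.0% were higher. From LSK/Flt3+ cells the median was 0.28, with 7 higher and 1 lower, where the median of all genes was 0.05 and 56.9% were higher. The middle 50% of all genes ran from -0.08 to 0.26 against LSK/Flt3- cells, and Hmgcs1, Cyp51 and Lss lay above that range while Fdft1 and Insig1 lay below it. The null arrays contributed unequally: against LSK/Flt3- cells the median of the 8 was 0.12 on replicate 1, where that of all genes was 0.15, and 0.36 on replicate 2, where that of all genes was 0.03. Against LSK/Flt3+ cells the medians were 0.14 on replicate 1 and 0.35 on replicate 2, beside 0.11 and -0.01 for all genes.

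Between the wild-type arrays, which differ by sorted fraction alone in the labels, LSK/Flt3+ cells had a median difference of -0.11 from LSK/Flt3- cells over the 8 genes, against 0.04 over all genes. These single arrays were compared without a p-value. None of the 8 reached a 2-fold difference, as 1.10% of all genes did. The values ran from -0.40 for Fdft1 to 0.43 for Lss, and Hmgcs1 was level on both arrays.

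How many of the genes stood apart from the wild-type arrays depended on the scaling. After median centring, 2 of the 8 genes (Hmgcs1 and Cyp51) were above both wild-type arrays, against 14.2% of all genes. After quantile normalization it was 3 (with Idi1), against 17.4%, and after cyclic loess 4 (Hmgcs1, Idi1, Sqle and Cyp51), against 17.2%. Insig1 was the 1 gene below both wild-type arrays under each of these scalings, where 19.0%, 18.0% and 18.9% of all genes were. Lss and Dhcr7 were above both wild-type arrays as deposited and overlapped with them under all 3 of these scalings.

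**Figure D4:**
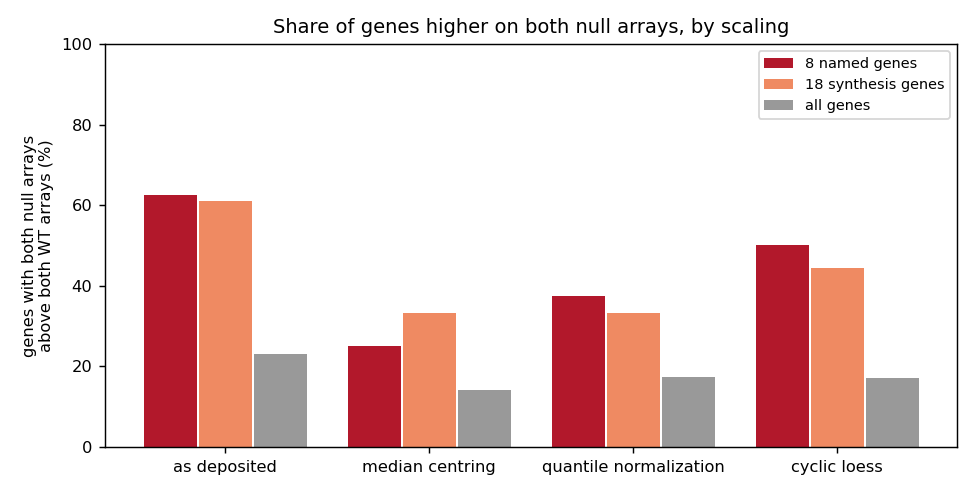
Percent of genes with both null arrays above both wild-type arrays (vertical axis, from 0) for the 8 genes, for the 18 measured synthesis genes and for all genes, under 4 scalings of the deposited values. The share of the 8 genes goes from 62.5% as deposited to 25.0% after median centring, while that of all genes goes from 23.0% to 14.2%.

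The other enzymes of the pathway were followed in a list of 14, of which 11 were measured and 3 were not analysed here. None of the 11 passed the limma test over all genes. In null cells 8 were higher and 3 lower than in LSK/Flt3- cells of wild-type mice, with a median of 0.23, where 65.0% of all genes were higher. Against LSK/Flt3+ cells 8 were again higher and 3 lower, with a median of 0.18, where 56.9% of all genes were higher. Msmo1, which oxidises sterol methyl groups, read 6.04 and 6.77 on the null arrays against 5.54 and 5.73, a difference of 0.87 (95% interval 0.0036 to 1.74; limma, adjusted p = 1) from LSK/Flt3- cells. Its null replicates were 0.73 apart, and both lay above the wild-type arrays. Fdps, which makes farnesyl diphosphate, read 7.49 and 7.53 against 7.03 and 6.97, with null replicates close together, for differences of 0.48 from LSK/Flt3- and 0.54 from LSK/Flt3+ cells. The mevalonate decarboxylase gene Mvd stood at 0.57 and 0.21, and the desaturase gene Sc5d at 0.41 and -0.05. Ebp and Nsdhl, late sterol enzymes named after their values were seen, showed the largest gaps between the null replicates, among the 11, with Ebp at 5.91 and 6.86 and Nsdhl at 6.83 and 7.68. With the 7 enzymes of the set, 11 of the 18 measured synthesis genes were above both wild-type arrays as deposited, where 23.0% of all genes were. It was 6 after median centring, where 14.2% of all genes were, 6 after quantile normalization (17.4%) and 8 after cyclic loess (17.2%).

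**Figure D5:**
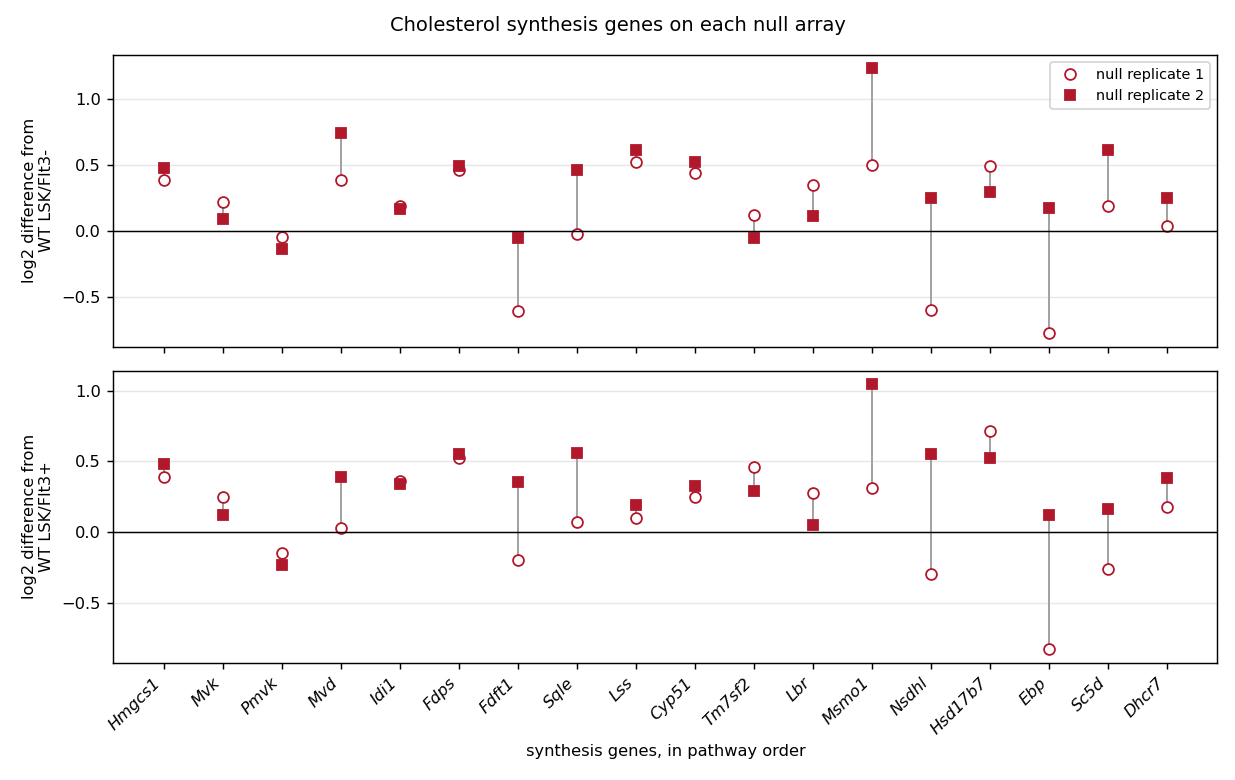
Log2 difference of null replicate 1 (open circles) and replicate 2 (filled squares) from wild-type LSK/Flt3- (top) and LSK/Flt3+ cells (bottom) for 18 cholesterol synthesis genes in pathway order. Grey lines join the replicates. Hmgcs1, Idi1, Fdps, Lss and Cyp51 have replicates close together above 0 in both panels, while Fdft1, Nsdhl and Ebp have replicate 1 below 0 and replicate 2 higher.

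Genes of the regulatory arm numbered 7 measured of 9 listed, and 0 passed limma in either null comparison. Srebf2, which encodes SREBP2, read 7.31 and 7.57 on the null arrays, 7.58 in LSK/Flt3- and 7.41 in LSK/Flt3+ cells, and the groups overlapped. Insig2, the paralogue of Insig1, read 7.97 and 7.48 on the null arrays, 7.34 in LSK/Flt3- and 7.64 in LSK/Flt3+ cells. Its difference from LSK/Flt3- cells was 0.38, opposite in sign to that of Insig1, but its null replicates lay on both sides of the LSK/Flt3+ array. The other members with large differences from LSK/Flt3- cells were Srebf1 (0.44), Scap (0.43) and the ubiquitin ligase gene Syvn1 (0.32). The isoprenoid branch, which turns the same precursors to prenylation, ubiquinone and dolichol, had 6 of 8 genes measured and 0 past the test, with a median of 0.00 against LSK/Flt3- cells. Its values there were -0.36 for the geranylgeranyl diphosphate synthase gene Ggps1, 0.16 for Pdss2, -0.11 for Fnta and 0.10 for Fntb.

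Of 11 cholesterol uptake and transport genes, 7 were measured. In null cells 4 were higher and 3 lower than in wild-type LSK/Flt3- cells, where 65.0% of all genes were higher. Against LSK/Flt3+ cells 1 was higher and 6 were lower, where 56.9% of all genes were higher. None passed limma over all genes. Stard4, a cytosolic sterol carrier that is also a target of SREBP2, read 8.88 and 9.16 on the null arrays against 8.18 and 8.12. Its groups did not overlap, and its difference was 0.84 (95% interval 0.03 to 1.64; limma, adjusted p = 1) from LSK/Flt3- and 0.90 (0.10 to 1.70; limma, adjusted p = 1) from LSK/Flt3+ cells. Npc1, which exports cholesterol from lysosomes, read 7.06 and 6.76 on the null arrays against 7.51 and 7.66, below both wild-type arrays, for differences of -0.61 and -0.75. Its partner Npc2 read 7.76 and 8.30 against 8.35 and 8.95, and the lysosomal lipase gene Lipa 7.01 and 7.16 against 6.86 and 7.12.

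A list of sterol-sensing and efflux genes linked to the LXR receptors, with an LXR gene among them, had 6 of 7 measured and 0 past limma. Its median was 0.15 against LSK/Flt3- and -0.44 against LSK/Flt3+ cells. Apoe, the lipid carrier of macrophages, read 7.62 and 8.60 on the null arrays, 8.85 in LSK/Flt3- and 9.89 in LSK/Flt3+ cells. It was lower in null than in LSK/Flt3+ cells (log2 difference -1.78, 95% interval -2.77 to -0.80; limma, adjusted p = 0.296), and the macrophage markers were highest on the same wild-type array, whose part in this difference was not tested. The exporters Abcg1 and Abca1 stood at 0.48 and 0.18 from LSK/Flt3- cells and at 0.40 and -0.52 from LSK/Flt3+ cells, and the LXR gene Nr1h3 at 0.29 and 0.33.

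Of the proliferation markers, 2 of 7 were higher and 5 lower in null than in LSK/Flt3- cells of wild-type mice, where 65.0% of all genes were higher. Their median was -0.08, and their summed log2 level ran from 68.65 to 69.59 over the 4 arrays. The median centred profile of the 8 genes was compared with that of other genes whose mean level was 6 or more. The nearest by Euclidean distance over the 4 arrays were Sdhd (0.05), Amdhd2 (0.05), Psmd12 (0.05), Dgcr6 (0.05) and Sec24d (0.06). Of 8411 such genes, 951 (11.3%) lay nearer to that profile than the median of the 8 genes themselves did (0.24). The profile itself only ran from -0.16 in wild-type LSK/Flt3+ cells to 0.22 on null replicate 2, and the distances were not scaled. Genes that vary little therefore also lie near it, so this count cannot say how common the pattern is.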

How the data were processed

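Mouse RNA on 4 Affymetrix arrays was analysed from log2 expression values per probe set that the authors deposited, for which the submitters' processing notes name RMA and affy 1.23. No source used here names the probes' genome build, and unequal array medians leave the scaling between arrays unsettled. Of 35556 probe sets, 21789 had a single gene symbol in the platform annotation, and those with several (1621) or none listed (12146) were left out. Each of the 19938 genes was read from its probe set of highest mean. One model of 3 groups was fitted to the 4 arrays with limma 3.58.1 in R 4.3.3, with a mean-dependent prior. Its 1 residual degree of freedom comes from the null pair, and the spread of that pair has to stand for the lone wild-type arrays too. P-values were two-sided and Benjamini-Hochberg adjusted across the 19938 genes, with a threshold of 0.05. Precision is limited by the number of arrays, and a difference from wild-type LSK/Flt3- cells had a median standard error of 0.34. Levels were not compared between genes, because probe sets differ in response.

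The 8 genes and the pathway lists were chosen with earlier results of these data known. Named genes were Hdac3, the 8 genes, and of each pathway list those past the test, otherwise up to 4 with the largest difference from wild-type LSK/Flt3- cells, and the 5 nearest profiles, passing over predicted genes. Other names were chosen after their values were seen. Alternatives changed the spread estimate, scaling, probe set rule, filter, wild-type grouping and replicates. Promoter windows are from RefSeq, GRCm38.p6.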

Additional observations from a re-analysis of the deposited data

How the results depend on the processing

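The count of the 8 genes past the limma threshold was 0 in both null comparisons, as was that of the 37 other pathway genes, under each of the 9 other settings that could be tested, although with a minimum mean level of 6 only 7 of the 8 and 27 of the 37 entered. Median centring moved the median of all genes from 0.09 to -0.04 against wild-type LSK/Flt3- cells, and that of the 8 genes from 0.20 to 0.07 with it. The Fdft1 difference from wild-type LSK/Flt3- cells, -0.33, became 0.069 with the mean of its probe sets and 0.46 with its other probe set, a setting chosen after seeing the data. From LSK/Flt3+ cells it went from 0.08 to -0.011 after median centring and -0.12 with the wild-type arrays as 1 group. Leaving out each null array in turn gave a Fdft1 difference from LSK/Flt3+ cells of -0.20 to 0.35, with the lower value when replicate 2 was left out. It gave a Sqle difference from LSK/Flt3- cells of -0.019 to 0.47, again lower without replicate 2. These were the only sign changes among the 8 genes, and their cause was not tested. No paired analysis was possible because the wild-type groups have 1 array each.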

Other observations

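Fatty acid synthesis genes, which the sister factor SREBP1 drives, did not share 1 direction. Of 11 measured, 8 were higher and 3 lower in null than in wild-type LSK/Flt3- cells (median 0.13), where 65.0% of all genes were higher. Against LSK/Flt3+ cells 9 were higher and 2 lower (median 0.26), where 56.9% of all genes were higher. In either comparison 0 of the 11 passed limma over all genes. Scd2, a fatty acid desaturase gene, read 7.47 and 8.81 on null replicates 1 and 2, 6.87 in LSK/Flt3- and 7.75 in LSK/Flt3+ cells, so that replicate 1 lay below the LSK/Flt3+ array and replicate 2 above it. Acly, which makes the acetyl-CoA that feeds both fatty acids and sterols, read 7.71 and 7.77 on the null arrays, 8.27 in LSK/Flt3- and 7.53 in LSK/Flt3+ cells, with the null arrays between the wild-type ones.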
